A study of Mus musculus with 6 samples.

Results

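Iron absorption, storage and export were described through 10 genes of the 21397 in the table: Cybrd1, Slc11a2, Heph, Slc40a1, Tfrc, Fth1, Ftl1, Aco1, Ireb2 and Epas1. The genes were chosen by name as the parts of this pathway, and the pathway was chosen on the difference of Cybrd1 between MMK-1 and vehicle, which was among the largest rises of the study. All 10 were listed in the table, 9 passed a filter of a mean FPKM of at least 1, and Slc40a1 did not. FPKM is the number of sequenced fragments on a gene, divided by the length of the gene and by the total of the library.

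RNA was sequenced from small intestinal organoids, which are cultures of epithelium grown from crypts in Matrigel and IntestiCult medium. The crypts came from Fpr2f/f mice on the C57BL/6J background, so organoids of both groups carried an Fpr2 gene flanked by loxP sites, and no Cre was named for them. In the MMK-1 group, 3 libraries were made from organoids kept with MMK-1 at 1 μmol/L for 5 days, and the 3 control libraries were from organoids kept as long with 0.1% DMSO, the vehicle. MMK-1 is a synthetic peptide that activates FPR2, a G protein-coupled receptor. A treatment field in the labels gives the concentration in mM, while their protocol text and the methods of the study give 1 μmol/L. Each library held pooled organoids of 3 mice aged 8 to 12 weeks, and the crypts were ileal. The labels do not say whether the pools came from separate animals, so the p-values measure only the spread between these libraries, which may be technical.

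Dietary iron enters the enterocyte at its apical side as ferrous iron, after a membrane reductase has reduced it, and leaves at the basolateral side through the exporter ferroportin, with a ferroxidase beside it. Iron that stays in the cell is held in ferritin, and crypt cells also take up iron from blood with the transferrin receptor. When iron is low, the iron regulatory proteins bind a hairpin in mRNAs, the iron-responsive element, which blocks translation when it lies in the 5′ untranslated region (UTR) and stabilizes the transferrin receptor mRNA from its 3′ UTR, and the transcription factor HIF-2α raises the transcription of uptake genes.

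The iron-responsive elements are shown here because they are the regulatory sequences that several of these genes share. The UTRs of GENCODE vM21 (GRCm38) were searched on the transcript strand for the loop CAGTGN, a C 6 bases before it, and 5 paired bases on each side between that C and the loop, with G-T pairs allowed. In the hairpins below, 29 bases are given from 5′ to 3′ and the capitals mark the loop. Fth1 held one in its 5′ UTR at chr19:9982732-9982760 on the plus strand, Ftl1 at chr7:45459779-45459807 on the minus strand, and Slc40a1 at chr1:45925465-45925493 on the minus strand.
Fth1: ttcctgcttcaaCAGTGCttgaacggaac
Ftl1: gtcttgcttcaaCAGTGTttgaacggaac
Slc40a1: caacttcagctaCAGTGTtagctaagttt

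Tfrc held 4 such hairpins, all in the 3′ UTR on the plus strand, at chr16:32631219-32631247, chr16:32631598-32631626, chr16:32631663-32631691 and chr16:32631710-32631738. They are given in this order, numbered from the stop codon.
Tfrc 1: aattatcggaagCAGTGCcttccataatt
Tfrc 2: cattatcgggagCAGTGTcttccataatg
Tfrc 3: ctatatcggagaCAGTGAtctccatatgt
Tfrc 4: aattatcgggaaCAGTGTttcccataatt

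The match was present in 4 of 5 coding transcripts of Fth1, 1 of 2 of Ftl1, 1 of 4 of Slc40a1 and 1 of 3 of Tfrc. Across the genome, 0.149% of 20088 genes with a 5′ UTR and 0.613% of 20868 genes with a 3′ UTR held this pattern. With at least 4 of the 6 bases outside the C paired as well, as in all the sequences above, the shares were 0.0299% and 0.0815%. A match in letters does not show binding. No match was found for the other iron genes, Slc11a2 and Epas1 among them. The search required all 5 bases beside the loop to pair, so this does not show that they lack an iron-responsive element. Transcripts without a match under this pattern were not examined further.

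Cybrd1, the apical ferric reductase known as duodenal cytochrome b, lies at chr2:71117923-71142926 on the plus strand of GRCm38. Its FPKM was 1.74, 1.94 and 1.57 with vehicle and 27.6, 27.1 and 26.6 with MMK-1. All MMK-1 libraries were far above all control libraries, and the groups did not overlap. The means were 1.75 ± 0.189 and 27.1 ± 0.485 (SD, n = 3 each), a ratio of 15.5, and the log2 fold change was 3.36 on the log2(FPKM + 1) scale, which understates changes of low genes. These levels rested on 305 to 380 fragments in control and 5069 to 5155 in MMK-1 libraries. Cybrd1 was the gene with the third largest rise among the 10551 genes tested, between Tubb2b with a log2 fold change of 3.66 and Lgr5 with 2.86. No test is given for Cybrd1, because this difference chose the pathway.

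**Figure D1:**
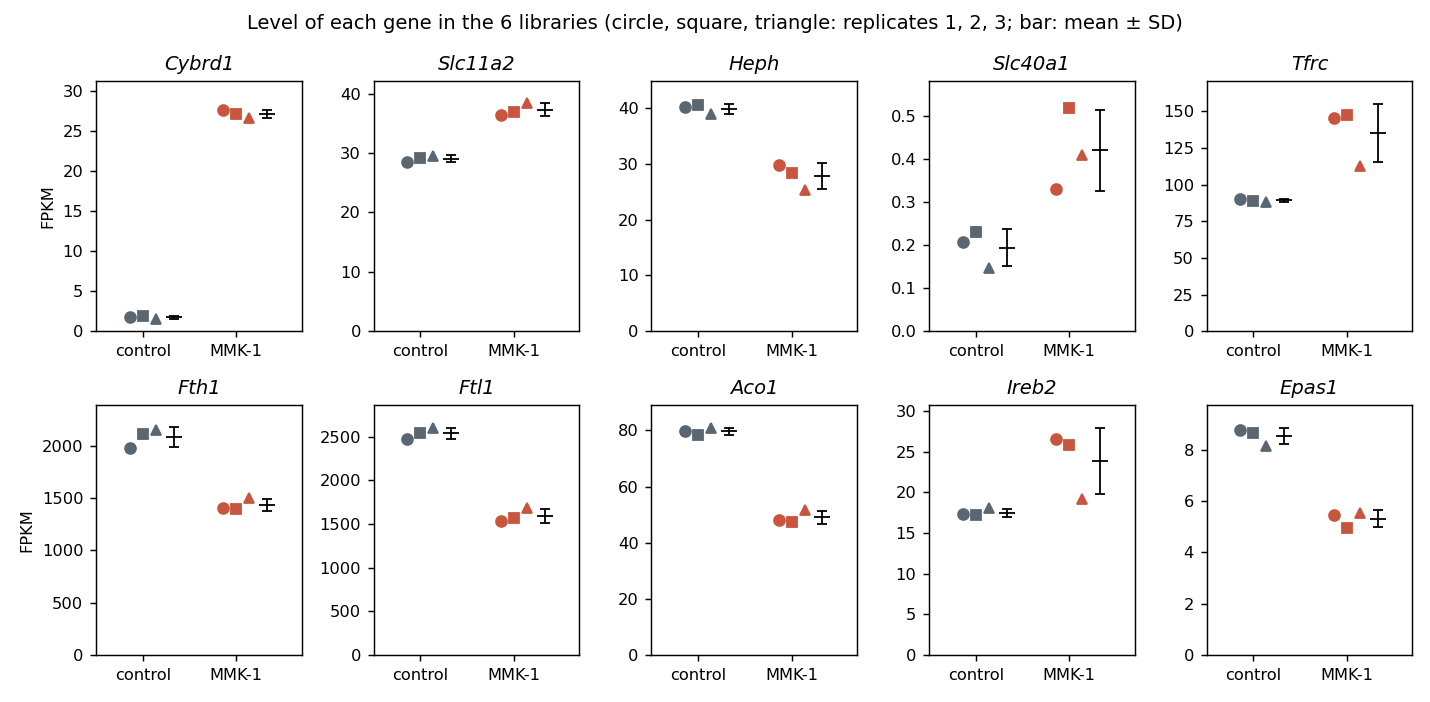
FPKM of the 10 iron genes (vertical axes from 0, a scale for each gene) in the 3 control libraries (grey) and the 3 MMK-1 libraries (red); circles, squares and triangles are replicates 1, 2 and 3, and black bars are the mean ± SD. Cybrd1 stood at 1.57 to 1.94 in control and at 26.6 to 27.6 in MMK-1 libraries, both ferritin genes were lower with MMK-1, and MMK-1 replicate 3 lay below the other MMK-1 libraries for Tfrc and Ireb2.

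The genes other than Cybrd1 moved by far less, and in both directions. Of the 8 that were tested, 3 rose (Slc11a2, Tfrc and Ireb2) and 5 fell (Heph, Fth1, Ftl1, Aco1 and Epas1) in limma (adjusted p no higher than 0.05). In the whole table, 48.5% of the genes tested were higher and 24.7% lower by the same rule, so a call was common. None of the 8 changed by at least 2-fold, a size reached with p of at most 0.05 by 3.39% of genes upward and 3.65% downward. The groups did not overlap for any of the 10 genes, nor for 76.8% of all genes tested. Over all genes tested, the log2 fold change had a median of 0.13 on the log2(FPKM + 1) scale and of 0.03 with upper-quartile scaling. The log2 fold changes below are differences of group means from which this median was not subtracted.

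Slc11a2, the apical importer of ferrous iron known as DMT1, lies at chr15:100387898-100425072 on the minus strand, where exons of the antisense gene Gm5475, at most 0.0575 FPKM in any library, overlap it. Its FPKM was 28.4, 29.2 and 29.6 in control and 36.4, 36.9 and 38.5 in MMK-1 libraries. Every MMK-1 library was above every control library, and the log2 fold change was 0.35 ± 0.041 (SE; limma, adjusted p = 7.29e-05). This difference was far smaller than that of Cybrd1. Within a library, the ratio of Cybrd1 to Slc11a2 FPKM was 0.0602 ± 0.00687 in control and 0.728 ± 0.0333 in MMK-1 libraries (SD, n = 3 each).

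Heph encodes hephaestin, the membrane ferroxidase that oxidizes iron as it leaves the enterocyte, and lies at chrX:96455359-96574485 on the plus strand, overlapped by exons of the antisense gene Hsf3, which was at most 0.13 FPKM. Its FPKM was 40.2, 40.5 and 38.9 in control and 29.9, 28.4 and 25.3 in MMK-1 libraries. All MMK-1 libraries were below the controls, with replicate 3 the lowest, and the log2 fold change was -0.50 ± 0.060 (SE; limma, adjusted p = 7.9e-05). The importer and the ferroxidase thus changed in opposite directions, and the ratio of Heph to Slc11a2 FPKM was 1.37 ± 0.0521 in control and 0.749 ± 0.0829 in MMK-1 libraries.

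Slc40a1, which encodes the iron exporter ferroportin and lies at chr1:45908068-45926523 on the minus strand, was barely detected. Its FPKM was 0.207, 0.229 and 0.146 in control and 0.331, 0.519 and 0.409 in MMK-1 libraries, from 19 to 30 and from 41 to 65 fragments. All MMK-1 libraries were above the controls, with a ratio of means of 2.16, but the gene was under the filter. In the fit over every gene above 0, its log2 fold change was 0.25 on the log2(FPKM + 1) scale (limma, adjusted p = 0.0131). Fragment numbers of this size carry a wide counting error. In both groups Slc40a1 was the lowest of the 10 genes, and its FPKM was 0.00485 ± 0.000986 of that of Heph in control and 0.0152 ± 0.0037 in MMK-1 libraries.

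Tfrc encodes the transferrin receptor and lies at chr16:32608920-32632794 on the plus strand, with its 4 hairpins toward the 3′ end. Its FPKM was 90.5, 89.2 and 88.5 in control libraries and 145, 148 and 113 in MMK-1 libraries. The control libraries lay close together, and MMK-1 replicate 3 was above them and well below the other MMK-1 libraries. The log2 fold change was 0.58 ± 0.093 (SE; limma, adjusted p = 0.000477). Of 12 tested genes whose 3′ UTR held the hairpin with the outer pairs, 5 were higher, Tfrc among them, and 3 lower, near the shares of all genes tested given above (48.5% and 24.7%).

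Ferritin is a shell of heavy and light chains, and genes of both chains fell. Fth1, the heavy chain, which has the ferroxidase site, lies at chr19:9980598-9985098 on the plus strand. Its FPKM was 1978, 2113 and 2155 in control and 1409, 1390 and 1503 in MMK-1 libraries. The groups were clearly apart, with a log2 fold change of -0.54 ± 0.049 (SE; limma, adjusted p = 1.46e-05).

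Ftl1, the light chain, lies at chr7:45457944-45459884 on the minus strand, where exons of Gm10252 on the opposite strand and of Gm22133 on the same strand overlap it, and neither gene was analysed here. Its FPKM was 2470, 2546 and 2594 in control and 1535, 1563 and 1677 in MMK-1 libraries, so every MMK-1 library was below every control library. The log2 fold change was -0.67 ± 0.046 (SE; limma, adjusted p = 2.53e-06). Ftl1 and Fth1 were among the 20 genes with the highest mean FPKM in the table, and together they took 0.426 to 0.455% of all fragments in control and 0.282 to 0.304% in MMK-1 libraries. Relative to the heavy chain, the light chain was lower with MMK-1. The ratio of Ftl1 to Fth1 FPKM was 1.25, 1.21 and 1.20 in control libraries and 1.09, 1.12 and 1.12 in MMK-1 libraries, without overlap. Coding sequences of at least 90% identity to Fth1 were found at 1 other gene and to Ftl1 at 7, mostly pseudogenes, so fragments of the ferritin genes could be shared between copies. The only such copy in the table, Ftl1-ps2, was at most 0.114 FPKM in any library.

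The transferrin receptor and ferritin therefore moved apart. The ratio of Tfrc to Fth1 FPKM within a library was 0.0457, 0.0422 and 0.0411 in control libraries and 0.103, 0.106 and 0.0749 in MMK-1 libraries. The lowest MMK-1 ratio, that of replicate 3, was still above the highest control ratio, and the ratio of the group means was 2.20. Such ratios do not depend on the scaling between libraries.

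**Figure D2:**
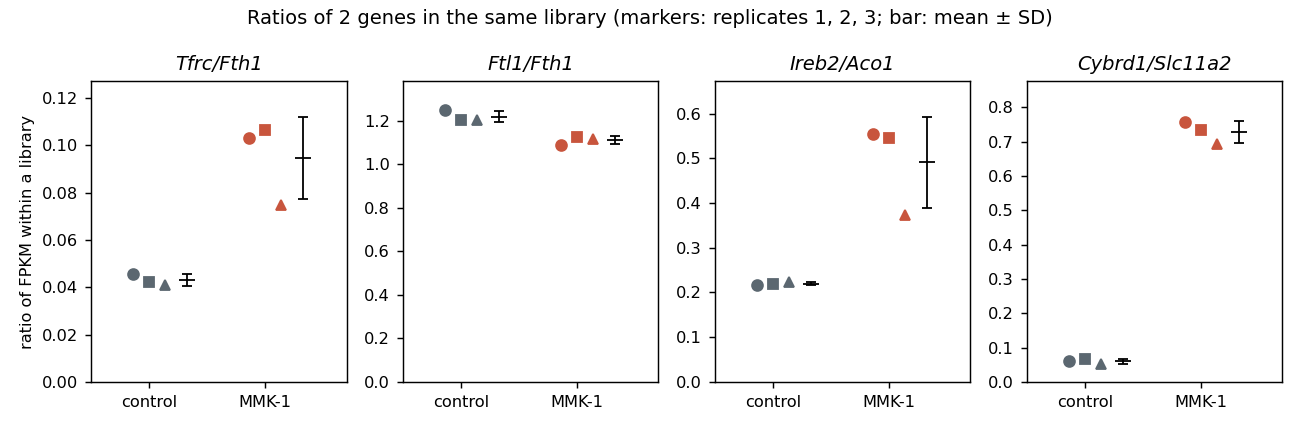
Ratio of the FPKM of a pair of genes in the same library (vertical axes from 0) for Tfrc to Fth1, Ftl1 to Fth1, Ireb2 to Aco1 and Cybrd1 to Slc11a2, in control (grey) and MMK-1 (red) libraries, with replicates 1, 2 and 3 as circle, square and triangle and the mean ± SD as black bars. Tfrc to Fth1 was 0.0411 to 0.0457 in control and 0.0749 to 0.106 in MMK-1 libraries, and Ftl1 to Fth1 was lower with MMK-1.

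The genes of the 2 iron regulatory proteins changed in opposite directions. Aco1 encodes iron regulatory protein 1, which serves as cytosolic aconitase while it holds an iron-sulfur cluster, and lies at chr4:40143081-40198338 on the plus strand. Its FPKM was 79.7, 78.5 and 80.9 in control and 48.0, 47.5 and 51.5 in MMK-1 libraries. The groups were far apart, and the log2 fold change was -0.69 ± 0.043 (SE; limma, adjusted p = 1.53e-06).

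Ireb2 encodes iron regulatory protein 2, which is degraded when iron is sufficient, and lies at chr9:54863789-54912530 on the plus strand. Its FPKM was 17.3, 17.2 and 18.1 in control and 26.6, 25.9 and 19.2 in MMK-1 libraries. MMK-1 replicates 1 and 2 were well above the controls, and replicate 3 was only just above the highest of them. The log2 fold change was 0.41 ± 0.11 (SE; limma, adjusted p = 0.00683), and it did not pass with upper-quartile scaling (0.30; limma, adjusted p = 0.0517). The ratio of Ireb2 to Aco1 FPKM was 0.217, 0.219 and 0.223 in control libraries and 0.554, 0.545 and 0.373 in MMK-1 libraries, which again did not overlap.

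Epas1 encodes HIF-2α and lies at chr17:86753700-86833410 on the plus strand. Its FPKM was 8.76, 8.65 and 8.17 in control and 5.45, 4.94 and 5.55 in MMK-1 libraries. All MMK-1 libraries were below the controls, with a log2 fold change of -0.59 ± 0.055 (SE; limma, adjusted p = 1.72e-05). Cybrd1 and Slc11a2, both known targets of HIF-2α, were higher in the same libraries in which the Epas1 mRNA was lower. These data hold no measure of the HIF-2α protein, and its part in these differences was not tested.

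**Figure D3:**
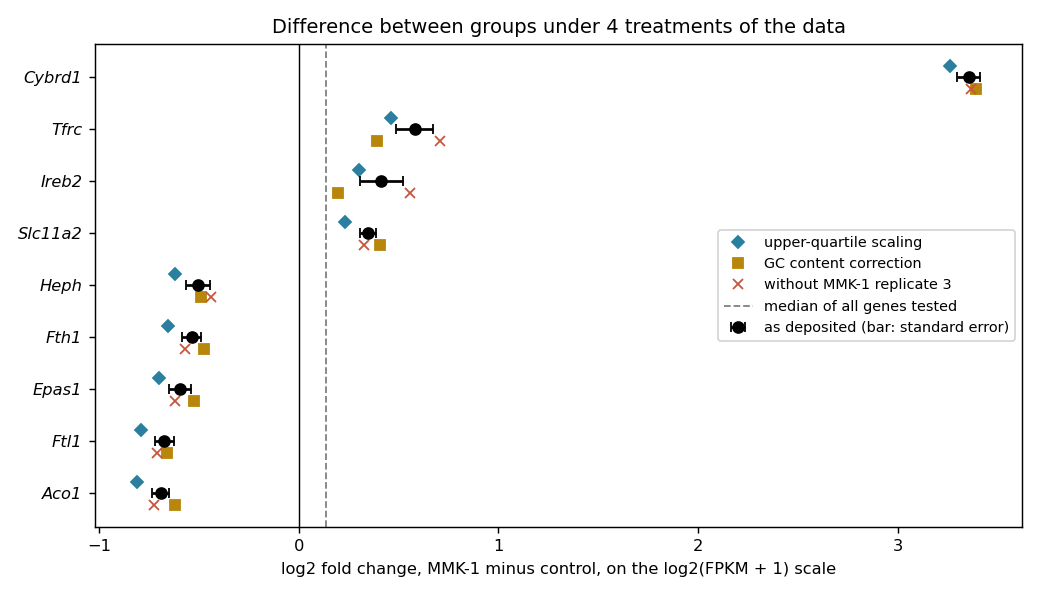
Log2 fold change of MMK-1 minus control on the log2(FPKM + 1) scale (horizontal axis) for the 9 genes over the filter, as deposited (black, with standard error), with upper-quartile scaling (blue), after GC content correction (yellow) and without MMK-1 replicate 3 (crosses); the dashed line is the median of all genes tested, 0.13. Each gene kept its side of 0 in all 4, and Ireb2 ranged from 0.20 after GC content correction to 0.56 without MMK-1 replicate 3.

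By level per gene length in control libraries, the order was Ftl1, Fth1, Tfrc, Aco1, Heph, Slc11a2, Ireb2, Epas1, Cybrd1 and Slc40a1, and no neighbors in this order overlapped between libraries. In MMK-1 libraries Cybrd1 moved past Epas1 and Ireb2. There Heph, at 25.3 to 29.9 FPKM, overlapped both Cybrd1, at 26.6 to 27.6, and Ireb2, at 19.2 to 26.6, while Slc11a2 had moved above Heph.

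The spread within the MMK-1 group was uneven among the iron genes. On the log2(FPKM + 1) scale, MMK-1 replicate 3 differed from the mean of replicates 1 and 2 by -0.43 for Ireb2, -0.38 for Tfrc and -0.19 for Heph. It differed by at most 0.12 in size for the other genes over the filter. Only 3.77% of the genes tested lay lower than Ireb2 in this measure and 4.55% lower than Tfrc. Ireb2 and Tfrc had the lowest GC contents of the genes over the filter, 39.0% and 39.8%. Across 10160 genes with a known GC content, Pearson's r between GC content and this difference was 0.517, against 0.04 for the same difference of control replicate 3, which is a description across genes that share these libraries. After a correction for GC content, chosen after the data were seen, the log2 fold change was 0.20 for Ireb2 (limma, adjusted p = 0.0041) and 0.39 for Tfrc. Their log2 fold changes without MMK-1 replicate 3 were 0.56 and 0.71.

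**Figure D4:**
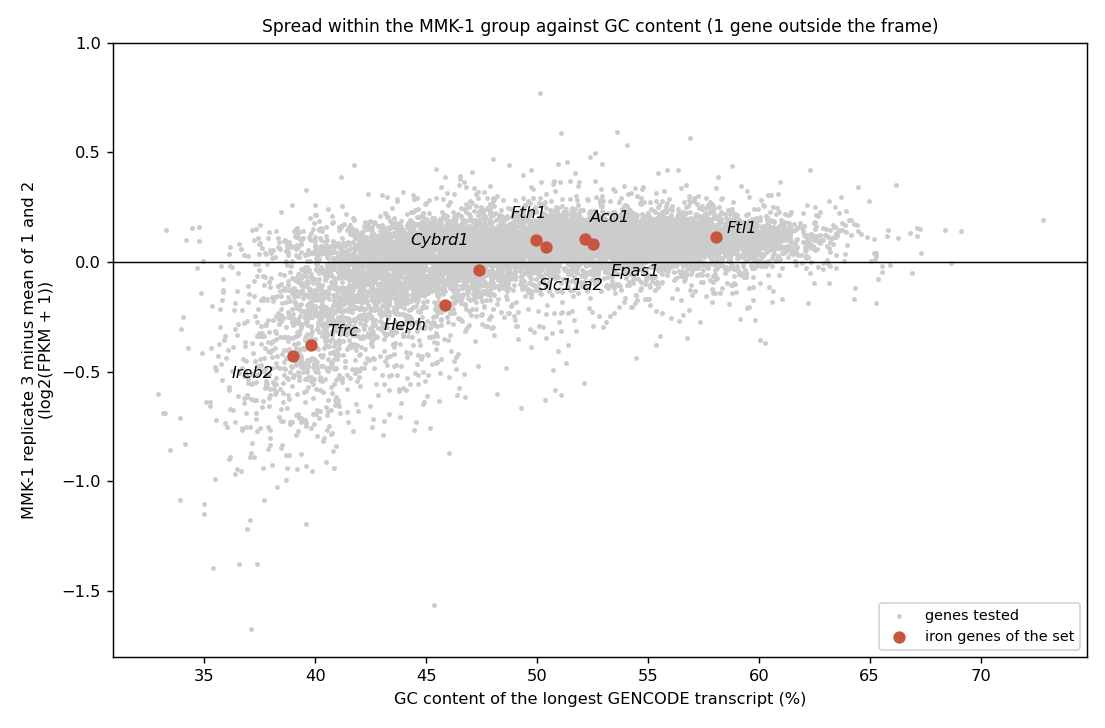
Difference of MMK-1 replicate 3 from the mean of MMK-1 replicates 1 and 2 on the log2(FPKM + 1) scale (vertical axis) against GC content of the longest GENCODE transcript in percent (horizontal axis), for the genes tested (grey) and the iron genes over the filter (red). Ireb2 and Tfrc, at 39.0% and 39.8% GC, lay at -0.43 and -0.38, and Ftl1, at 58.1% GC, lay at 0.12.

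Markers of the cells in the cultures differed between the groups along with the iron genes. The counts in this paragraph stand against 48.5% higher and 24.7% lower among all genes tested, and abundance is the mean FPKM over the 6 libraries. Of 16 enterocyte markers, 15 were lower and 1 higher with MMK-1, with a summed FPKM of 10870 to 10948 in control and 5903 to 6324 in MMK-1 libraries. Fabp1 (log2 fold change 0.17) and Sis (-0.85) were the most abundant of them. All 9 stem cell markers were higher, with sums of 88.1 to 90.4 and 441 to 467. The most abundant were Olfm4, with means of 4.35 and 173 FPKM, and Smoc2, with 33.1 and 101, so Olfm4 led the sum with MMK-1 and not in control. Of 7 epithelial markers, 3 were higher and 3 lower, and the most abundant were Krt19 (-0.78) and Krt8 (-0.30), while Epcam was at 390 to 394 FPKM in control and 377 to 415 in MMK-1 libraries. In bulk RNA, fewer cells of a type and less RNA per cell cannot be told apart, and the part of cell makeup in the differences of the iron genes was not tested. All 5 tested ileal markers were lower, and the most abundant of them were Osr2, at 38.7 to 41.5 and 31.8 to 33.3 FPKM, and Cubn, at 18.4 to 19.4 and 2.81 to 3.24. With MMK-1, Cubn was below Bcl2l15, which was at 11.5 to 11.7 and 9.81 to 10.7 FPKM (log2 fold change -0.18). Of 4 tested proximal markers, 3 were higher and 1, Lct, was lower, but with upper-quartile scaling only 1 was higher and 1 lower. The most abundant of them was Fabp1, at 2161 to 2257 and 2342 to 2659 FPKM.

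Markers of the cells that recycle iron or make hemoglobin were at low levels. Of the 9 macrophage and leukocyte markers in the table, Ptprc and Adgre1 stayed at or below 0.0136 FPKM, and only Cd68 passed the filter, at 2.78 to 3.58 FPKM in control and 0.915 to 1.62 in MMK-1 libraries. The sums of these markers were 4.45 to 5.20 and 2.91 to 3.60. Besides Tfrc, the 6 erythroid markers did not exceed 0.131 FPKM in any library. Among fibroblast markers only Vim passed the filter, at 4.61 to 5.04 and 3.28 to 4.77 FPKM, and Col1a1 was at most 0.0681. Cd14, Lyz2 and the other markers of these 3 lists were at or below 1.37 FPKM.

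Beyond the 10 genes, 10 lists of iron, heme and oxygen-sensing genes held 116 other genes, of which 111 were in the table and 96 were tested. Of these, 44 were higher, 29 were lower and 23 did not pass, against 48.5% and 24.7% in the whole table, and the median log2 fold change was 0.07, against 0.13 for all genes. With upper-quartile scaling the counts were 39 and 38, while all genes went from 5118 higher and 2606 lower to 4036 and 3589. No called gene of these lists turned direction with that scaling.

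**Figure D5:**
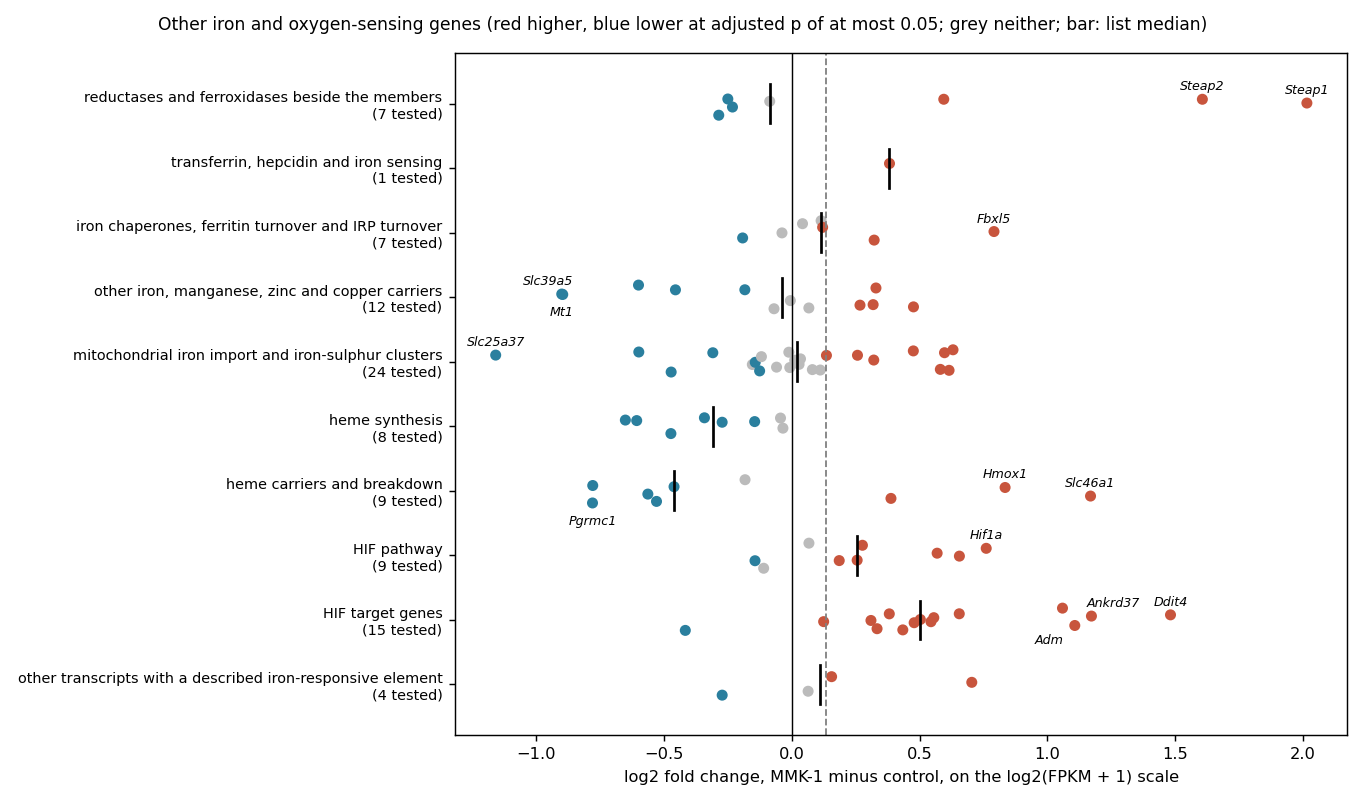
Log2 fold change of MMK-1 minus control on the log2(FPKM + 1) scale (horizontal axis) of each tested gene in 10 lists of iron, heme and oxygen-sensing genes (points; red, higher; blue, lower; grey, not past an adjusted p of 0.05 in limma), with the list median (black bar) and the median of all genes tested, 0.13 (dashed). Of the HIF target genes, 14 of 15 were higher, and of the heme synthesis genes 6 of 8 were lower and none was higher, against 48.5% higher and 24.7% lower among all genes tested.

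Among the other reductases and ferroxidases, 3 of 7 tested genes were higher and 3 lower. The higher ones were all of the STEAP family of membrane heme proteins, several of which reduce iron and copper, although Steap1 lacks the NADPH-binding domain of its relatives. Steap1 was at 1.67 to 2.09 FPKM in control and 9.73 to 12.3 in MMK-1 libraries (log2 fold change 2.01; limma, adjusted p = 1.89e-07), and Steap2 was at 1.07 to 1.22 and 4.94 to 6.19 (1.61). Steap3, the reductase of transferrin-bound iron in endosomes, was at 1.48 to 1.62 and 2.58 to 3.09 (0.59). The most abundant gene of the list was Cyb561, a relative of Cybrd1, at 18.2 to 19.2 and 15.4 to 16.8 FPKM (-0.23; limma, adjusted p = 0.00234). Thus Cyb561 and Cybrd1 went in opposite directions.

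Of the genes of transferrin, hepcidin and iron sensing, only Neo1, a coreceptor in hepcidin control, passed the filter, and it rose (0.38). Trf, encoding transferrin, was at most 1.23 FPKM and Hamp, encoding hepcidin, at most 0.0684 in any library. In the list of chaperones and turnover, 3 of 7 were higher and 1 lower, and with upper-quartile scaling 2 were higher and 2 lower. Fbxl5, the iron-sensing F-box protein that targets iron regulatory proteins for degradation, was at 13.4 to 13.8 FPKM in control libraries and at 28.2, 27.0 and 18.8 in MMK-1 libraries (log2 fold change 0.79; limma, adjusted p = 0.0005), with replicate 3 again the lowest of its group. Pcbp1, the iron chaperone that loads ferritin, rose by 0.32 and was the most abundant of the list, and the glutaredoxin Glrx3 fell by 0.19 on the log2 scale. Ncoa4, the receptor for ferritin breakdown, was at 25.9 to 26.1 and 24.1 to 26.6 FPKM and did not pass (limma, adjusted p = 0.465).

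Of 12 tested carriers and binders of iron, manganese, zinc and copper, 4 were higher and 5 lower. The largest falls were those of Slc39a5, a zinc importer, at 159 to 162 FPKM in control and 83.3 to 88.9 in MMK-1 libraries (log2 fold change -0.90), and of the metallothionein genes Mt1 (-0.90) and Mt2 (-0.60). Mt2 was the most abundant gene of the list, with means of 3895 and 2566 FPKM. Mitochondrial iron import and iron-sulfur cluster assembly had 8 higher, 6 lower and 10 not past the threshold of 24 tested, with a median log2 fold change of 0.019. The balance depended on the scaling, with 7 higher and 10 lower and a median of -0.094 under upper-quartile scaling, and 11 higher and 5 lower of 23 after GC content correction. Slc25a37, which encodes the mitochondrial iron importer mitoferrin-1, fell, with 59.7 to 61.2 FPKM in control and 25.5 to 27.1 in MMK-1 libraries (-1.16; limma, adjusted p = 6.03e-08). Iba57 (0.63) and Ciapin1 (0.61), both of cluster assembly, rose, as did the chaperone Hspa9 (0.60), the most abundant of the list.

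Of 8 heme synthesis genes, 6 were lower and none was higher, against 24.7% and 48.5% of all genes tested, and the list median was -0.31 on the log2 scale. After GC content correction 5 were lower, with a median of -0.24. Fech, which inserts iron into the heme ring, was at 24.6 to 25.1 FPKM in control and 14.9 to 16.1 in MMK-1 libraries (-0.65; limma, adjusted p = 2.3e-06). Alas1, the first and rate-limiting step, fell by 0.61 and Alad fell by 0.47 on the log2 scale, while the most abundant gene, Cpox, did not pass (limma, adjusted p = 0.695). Of 9 heme carriers and breakdown enzymes, 3 were higher and 5 lower. Slc46a1, a transporter of folate and heme, was at 5.68 to 6.06 FPKM in control and 13.6 to 15.3 in MMK-1 libraries (1.17; limma, adjusted p = 2.4e-07), and Hmox1, the inducible heme oxygenase that releases iron from heme, was at 4.63 to 6.23 and 9.61 to 11.3 (0.83). Pgrmc1, a heme-binding membrane protein and the most abundant of the list, was lower (-0.78), as was the efflux pump Abcg2 (-0.78).

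Of 9 tested genes of the HIF pathway beside Epas1, 6 were higher, 1 was lower and 2 did not pass, against 48.5% of all genes tested that were higher. With upper-quartile scaling, 5 were higher and 2 lower. Hif1a, the relative of Epas1, was at 16.6 to 17.3 FPKM in control libraries and at 32.7 in MMK-1 replicate 2 and 23.7 in MMK-1 replicate 3 (0.76; limma, adjusted p = 0.000269). Hif3a rose by 0.66, and Egln3, a prolyl hydroxylase that marks HIF for degradation and the most abundant of the list, rose by 0.57. Of 15 HIF target genes, 14 were higher and 1 lower, and their log2 fold changes had a median of 0.50, against 0.13 for all genes tested and 48.5% of them higher. Ddit4 rose from a mean of 44.6 to 126 FPKM (1.48), Ankrd37 by 1.17, and Adm, encoding adrenomedullin, by 1.11 on the log2 scale. Eno1, a glycolytic enzyme and the most abundant of the list, rose by 0.43, and Ndrg1 was the 1 gene that fell (-0.42). With upper-quartile scaling, 13 of these genes were higher and 1 lower, with a median of 0.38.

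Among the tested transcripts with an iron-responsive element described elsewhere, Cdc14a (log2 fold change 0.70; limma, adjusted p = 1.4e-05) and Cdc42bpa (0.16) were higher, and App did not pass. With upper-quartile scaling, 1 of the 4 tested was higher and 1 lower, against 2 and 1 without it. The other tested gene with the hairpin in its 5′ UTR and the outer pairs, beside Fth1 and Ftl1, was Ppp1r1b, which rose by 0.56 (limma, adjusted p = 6.39e-06).

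By distance of centred log2(FPKM + 1) values over the 6 libraries, the genes closest to Cybrd1 were Tubb2b (0.478), Lgr5 (0.642), Cnn3 (0.953), Lypd8l (0.965) and Itln1 (1.01). Their FPKM was higher in MMK-1 libraries like that of Cybrd1, from 2.03 to 21.0 on average for the stem cell gene Lgr5 and from 50.9 to 300.5 for Itln1. With 6 libraries in 2 groups, this likeness is mostly the size of the difference between the groups.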

How the data were processed

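The 10 iron genes and the lists of other genes were chosen with earlier results of these data known. Trizol-extracted RNA was sequenced as 150-bp paired-end reads from VAHTS Universal V10 libraries, which were grouped by the labels. The authors deposited FPKM values for 21397 genes, which divide the fragments on a gene by its length and by the library total. The submitters' processing notes name HISAT2, HTSeq, DESeq2, R 3.2.0 and mm10 without their roles, and whether counting used strand is not given in the sources used here.

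Fragment numbers were computed from the steps between FPKM values, with totals of 35512739 to 37537463 fragments per library, of which 99.7% lay on listed genes. They carry counting error besides any other difference between the libraries. Groups were compared with limma 3.58.1 (limma-trend, R 4.3.3), without covariates. Values were log2 FPKM after adding a pseudocount of 1, for the 10551 genes whose mean FPKM reached 1. Adjusted p-values are those of Benjamini and Hochberg over all genes tested, two-sided, with a threshold of 0.05. The test was tried on simulated data first.

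Genes were matched by symbol to GENCODE vM21 (GRCm38, the same assembly as mm10) for positions, UTR sequences and GC content, which was known for 96.3% of genes tested. Copies were sought with BLAST 2.17.0 at 90% identity over 50% of the coding sequence. The genes named were the 10 iron genes, the 3 largest called changes and the most abundant gene of each iron list, the most abundant genes of the marker lists and the 5 genes nearest to Cybrd1. Ncoa4, Trf, Hamp, App, Cdc42bpa, Ppp1r1b, Bcl2l15 and the defining markers of other cell types were named after their values were seen. Of the listed genes, 6 were not analysed here, and 1 that the rule names is not reported here. Alternatives covered the scaling, unit, filter, pseudocount, test on fragments, replicate block, threshold and each library left out.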

Additional observations from a re-analysis of the deposited data

How the results depend on the processing

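The numbers of iron genes called were stable over the alternatives run: 5 were lower under each of them, and the number higher was 3 except with upper-quartile scaling, with 2, and in the fit over every gene above 0, with 4, where Slc40a1 entered. The upper-quartile exception was Ireb2, whose log2 fold change was 0.30 (limma, adjusted p = 0.0517). Among the other iron lists, 34 to 48 genes were higher and 24 to 38 lower over the alternatives that kept all libraries. No log2 fold change of an iron gene turned direction, and of the values under alternatives, 129 kept their side of the threshold or stayed within the spread between replicates, 1 lost its call (Ireb2, above) and 4 moved by more, all of Cybrd1, whose log2 fold change ran from 3.26 with upper-quartile scaling to 3.96 with limma-voom on fragments. The adjusted p of the other tested iron genes over the filter stayed at or below 0.0068 (limma, for Tfrc).

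The replicate numbers were not used as pairs, and the labels do not say whether they pair the libraries. Same-numbered libraries of the groups correlated at 0.025, -0.04 and 0.028 in their deviations from the group means. With 3 libraries per group, these values cannot decide whether the libraries were paired. With a replicate block, 3 iron genes were higher and 5 lower, 42 and 29 genes of the other lists, and 5024 and 2543 of all genes tested.

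Without MMK-1 replicate 3, the log2 fold changes of Ireb2 and Tfrc were larger, at 0.56 and 0.71. Slc40a1, on 19 to 65 fragments a library, is limited by depth, and FPKM is relative to the total of a library.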
